A study of Mus musculus with 4 samples.

Results

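Lysyl oxidases and collagen hydroxylases are the enzymes that modify collagen before and after it leaves the cell, and 10 of their genes are described here across 4 RNA-seq libraries of the mouse lower incisor. They were chosen by name, as the rows of the count table that map to Lox, Loxl1, Loxl2, Loxl3 and Loxl4 (lysyl oxidases), Plod1, Plod2 and Plod3 (lysyl hydroxylases) and P4ha1 and P4ha2 (prolyl 4-hydroxylase alpha subunits). All 10 were found among the 55487 genes of the table, and all 10 passed the filter on low counts that left 17128 tested genes. The study compared control mice carrying floxed Ptip alleles (Ptipf/f) with conditional knockouts carrying the same alleles and Sp7-cre, all of strain C57 at postnatal day 30, with 2 libraries in each group. The tissue is labelled dental pulp and the source dental progenitor cells, taken by flow cytometry as cells without CD45, Ter119 and Tie2 on their surface. The floxed alleles are shared by both groups. The controls have no Cre, so loss of Ptip and presence of the Cre transgene cannot be told apart. Sp7 is a transcription factor gene of bone-forming and dentin-forming cells, so Cre is expected to act in those lineages and not in every sorted cell. Whether each library is a single animal or a pool is not labelled, so p-values measure only the spread between these libraries, which may be technical.

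As background, prolyl 4-hydroxylases act in the endoplasmic reticulum and hydroxylate prolines of the collagen chain, which the triple helix needs to be stable at body temperature. Lysyl hydroxylases act in the same compartment on lysines, and hydroxylysine carries the sugars of collagen and sets which kind of cross-link forms later. Lysyl oxidases are secreted copper enzymes that oxidise lysines and hydroxylysines of collagen and elastin, the first step of covalent cross-linking. Dentin, bone and the periodontal ligament are tissues rich in such cross-linked collagen.

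Library totals lay between 15154246 and 19142757 counts. Paxip1, the gene of PTIP, was lower in both knockout libraries: 407 and 696 counts stood against 111 and 71. Genes of other tissues were present in every library. The ameloblast gene Ambn, whose cells the gate does not remove, reached 18171 to 52583 CPM (counts divided by library size, with TMM scaling). Genes of the gate's own markers were present in spite of it. Ptprc, which encodes CD45, stood at 9.25 to 144 CPM. Tek, which encodes Tie2, had 21.7 and 81.2 CPM in the controls and 44.8 and 41.8 CPM in the knockouts. The summed level of 10 leukocyte markers was 1465 to 4643 CPM in the controls and 196 to 610.1 in the knockouts. For 5 erythroid markers it was 299 to 323 against 67.6 to 76.2, for 5 Schwann cell markers 369.97 to 523 against 111 to 137, and for 6 endothelial markers 589 to 941 against 436 to 496. None of these 26 genes was at 0 in all libraries. In the other direction, 7 dental mesenchyme markers summed to 934 and 1151 CPM in the controls and 3142 to 3616 in the knockouts. In bulk RNA, fewer cells of a type and less RNA per cell cannot be told apart.

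No member passed the test over all genes (edgeR's quasi-likelihood test with Benjamini-Hochberg adjustment, threshold 0.05), which called 0% of the tested genes. The targeted gene Paxip1 did not pass either, with 28.3 and 44.3 CPM in the controls against 5.69 and 3.98 in the knockouts. Its log2 fold change was -2.91 (SE 0.48, edgeR adjusted p = 0.150). Failing this test therefore does not show that a gene is unchanged. At an unadjusted p under 0.05 there were 2 of 10 members, P4ha2 on the higher and Loxl4 on the lower side, against 17.2% of all tested genes (7.32% higher and 9.89% lower). DESeq2 called 1 member, Loxl4, and 8.41% of its genes, and limma-voom called 0 of either. In CPM, 3 members (Plod2, P4ha1 and P4ha2) stood above every control library in both knockouts and 3 (Loxl4, Plod1 and Plod3) stood below. Over all tested genes these shares were 25.8% and 24.9%, or 50.6% in all, close to those of the members. The median log2 fold change of the 10 members was -0.05, beside 0.00 over all tested genes.

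**Figure D1:**
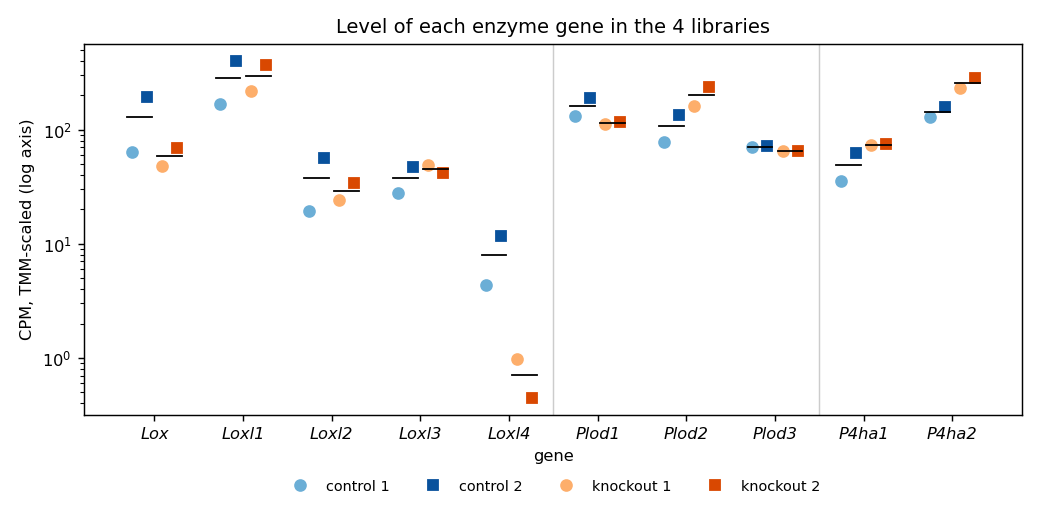
Level of the 10 genes in each library, in TMM-scaled CPM on a log axis, with control libraries in blue, knockout libraries in orange and a black line at each group mean (n = 2). Plod2, P4ha1 and P4ha2 stand above the controls in both knockouts, and Loxl4 lies between 0.448 and 0.974 CPM in the knockouts against 4.31 and 11.8 in the controls.

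Levels per kilobase of exon put genes on a common, rough scale. The length merges all annotated exons of a gene and can exceed that of the transcripts present. On this scale Loxl1 had the highest level in both groups. In the controls it stood at 86.0 ± 49.6 CPM per kb (SD, n = 2), followed by Lox at 26.8 ± 19.03, Plod1 at 23.6 ± 5.87, P4ha2 at 22.7 ± 3.23 and Plod2 at 19.8 ± 7.54. Those last 4 overlapped with their neighbours in the order. Plod3 came next at 15.7 ± 0.40, above P4ha1 at 11.9 ± 4.73, Loxl3 at 8.14 ± 2.99 and Loxl2 at 6.96 ± 4.76, 3 genes that overlapped in turn. Loxl4 was the lowest at 1.91 ± 1.25, with both libraries below those of Loxl2. In the knockouts Loxl1 again led at 88.6 ± 31.5 CPM per kb, and the next places went to P4ha2 at 41.1 ± 5.40 and Plod2 at 37.1 ± 9.92, which overlapped. P4ha1 at 18.0 ± 0.06, Plod1 at 16.9 ± 0.62 and Plod3 at 14.3 ± 0.09 followed, each apart from the next. Lox stood at 12.2 ± 3.00 in the knockouts and overlapped with Plod3 and with Loxl3 (9.81 ± 1.11). Loxl2 was at 5.38 ± 1.25 and Loxl4 at 0.169 ± 0.088. The place of Lox in the controls rested on control 2, with 40.2 CPM per kb: in control 1 it stood at 13.3, below Plod1, P4ha2, Plod2 and Plod3.

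Both prolyl 4-hydroxylase members had higher values in the knockouts, and neither passed the test. P4ha2 (ENSMUSG00000018906; GRCm38 chromosome 11, 54100095 to 54131665, plus strand) encodes a catalytic alpha subunit of the enzyme. It had 128 and 156 CPM in controls 1 and 2, and 233 and 280.2 CPM in knockouts 1 and 2. Every knockout value lay above every control value, a 1.81-fold higher mean. The log2 fold change was 0.85 (SE 0.33), with an edgeR adjusted p of 0.255. With 1 library left out it stayed between 0.74 and 0.99, the narrowest such range of the members that differed in both knockouts, apart from Plod3. P4ha1 (ENSMUSG00000019916; chromosome 10, 59323296 to 59373304, plus strand), another alpha subunit, had 35.1 and 62.6 CPM in the controls. In the knockouts it had 73.7 and 74.0 CPM, so the groups did not overlap. Its log2 fold change was 0.60 (SE 0.39; edgeR adjusted p = 0.502), and it was 0.26 without control 1 and 1.04 without control 2. The third alpha subunit gene, P4ha3, counted here among the partners, overlapped between the groups, with 3.55 and 22.3 CPM against 14.2 and 49.5 CPM. P4ha1 and P4ha2 together summed to 29.0 and 40.2 CPM per kb in the controls, against 55.2 and 62.9 in the knockouts. P4ha2 made up 62.2% to 70.5% of that sum in the controls and 67.5% to 71.4% in the knockouts, so the make-up of the pair overlapped between the groups.

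Among the lysyl hydroxylases, Plod2 was higher in the knockouts and Plod1 and Plod3 were lower. Plod2 (ENSMUSG00000032374; chromosome 9, 92542223 to 92608428, plus strand) encodes the enzyme that hydroxylates lysines in the collagen telopeptides, the ends outside the helix. It had 77.8 and 135 CPM in the controls and 162 and 238 CPM in the knockouts. The groups did not overlap, and the log2 fold change was 0.91 (SE 0.41; edgeR adjusted p = 0.318). With 1 library left out it ranged from 0.59 (without control 1) to 1.33 (without control 2). Plod1 (ENSMUSG00000019055; chromosome 4, 147909753 to 147936767, minus strand), whose enzyme acts on lysines within the helix, had 132 and 188 CPM in the controls and 111 and 117 CPM in the knockouts. Its log2 fold change was -0.49 (SE 0.34; edgeR adjusted p = 0.527), and -0.24 without control 2. Plod3, whose enzyme also adds glucose and galactose to hydroxylysine, varied least of all members. It had 69.7 and 72.2 CPM in the controls against 64.9 and 64.3 CPM in the knockouts (log2 fold change -0.13, SE 0.32, edgeR adjusted p = 0.885). The groups of Plod3 overlapped when only library totals were used for scaling (66.1 and 73.7 against 66.2 and 64.6 CPM).

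In the lysyl hydroxylase family, the shares of Plod2 and Plod1 lay apart between the groups and that of Plod3 overlapped. These shares do not depend on how libraries are scaled. Plod2 took 29.2% and 36.4% of the summed level per kb in the controls, against 49.4% and 58.3% in the knockouts. Plod1 took 39.5% and 40.4% in the controls, against 27.0% and 22.9% in the knockouts. The ratio of Plod2 to Plod1, both per kb, was 0.740 and 0.903 in the controls, against 1.83 and 2.55 in the knockouts. By this measure, which rests on merged exon lengths, Plod1 stood above Plod2 in both controls and below it in both knockouts. The log2 ratio was 1.40 higher in the knockouts, and 1.16 to 1.64 higher with any 1 library left out. In an exact permutation test over the 4 libraries (two-sided) it had p = 0.333, the smallest that 2 against 2 allows, so no ratio here can pass 0.05. That p was also reached by 5 of the other 7 ratios within families. The share of other gene pairs that reach it was not computed, so this count has no background. The summed level of the family overlapped between the groups (49.3 and 68.9 against 60.9 and 75.7 CPM per kb).

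**Figure D2:**
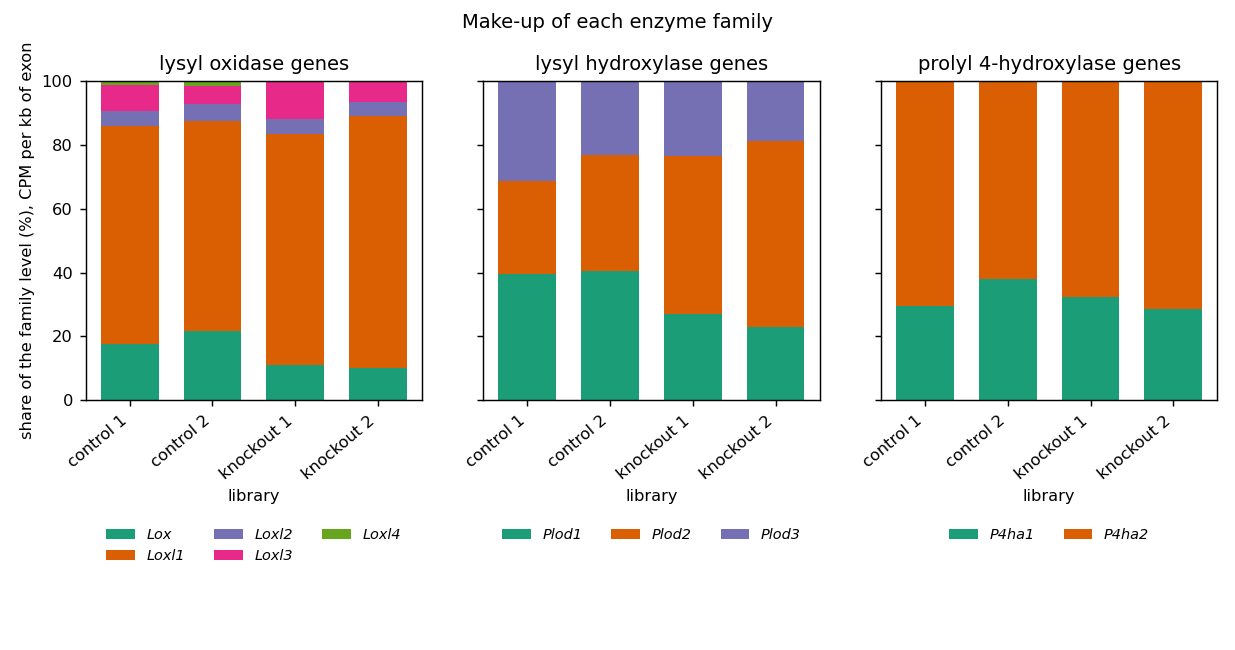
Share of each gene in the summed level of its family, in percent of CPM per kb of exon, for the 4 libraries. Plod2 takes 29.2% and 36.4% of the lysyl hydroxylase level in the controls, against 49.4% and 58.3% in the knockouts, and Lox takes 17.8% and 21.8% of the lysyl oxidase level in the controls, against 11.0% and 10.2% in the knockouts.

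Among the lysyl oxidases, Loxl4 showed the widest difference. Loxl4 (ENSMUSG00000025185; chromosome 19, 42593982 to 42612813, minus strand) belongs, with Loxl2 and Loxl3, to the members that carry scavenger receptor domains in front of the catalytic domain. Its counts were 62 and 185 against 19 and 8 in the knockouts, or 4.31 and 11.8 against 0.974 and 0.448 CPM. All knockout values lay below all control values, and the mean was 11.3-fold lower (-3.48 on the log2 scale, SE 0.91). In edgeR it had an adjusted p of 0.171, and in DESeq2 one of 0.00276, which called 5.69% of its 17378 genes on the lower side. Loxl4 also passed edgeR without control 1 (-4.00, adjusted p = 0.0370; 1.12% of genes called lower) and without knockout 1 (-4.13, adjusted p = 0.0367; 3.69% of genes called lower), and without the low-count filter (adjusted p = 0.00889; 3.2% of genes called lower). It did not pass without control 2 (-2.63) or without knockout 2 (-2.99), and over its alternatives the adjusted p ranged from 0.00276 to 0.330. The leukocyte, erythroid, Schwann cell and endothelial marker sums given above were lower in the same 2 libraries as Loxl4. Within the controls, the Schwann cell and endothelial sums were higher in control 2, as Loxl4 was. The leukocyte sum (4643 against 1465 CPM) and the erythroid sum (323 against 299 CPM) were higher in control 1. The part of these cell types in the difference of Loxl4 was not tested.

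Lox itself, the founding member, and its close relative Loxl1 both overlapped between the groups. Lox had 63.6 and 192 CPM in the controls and 48.3 and 68.6 CPM in the knockouts. Control 2 was the highest library, and control 1 lay between the knockouts. The log2 fold change of -1.13 (SE 0.55; edgeR adjusted p = 0.357) was -0.15 without control 2. Loxl1, known for its role in elastic fibre upkeep, had 168 and 399 CPM in the controls and 219 and 365 CPM in the knockouts, so the knockouts lay within the range of the controls (log2 fold change 0.04, SE 0.50, edgeR adjusted p = 0.979). Its sign changed to -0.43 without control 1 and -0.33 without knockout 2, and it was 0.77 without control 2. Relative to Loxl1, Lox was lower in both knockouts: the ratio per kb was 0.261 and 0.332 in the controls, against 0.153 and 0.130 in the knockouts. That log2 ratio was -1.07 (-1.24 to -0.89 with 1 library left out; exact permutation p = 0.333). The share of Lox in the summed lysyl oxidase level was 17.8% and 21.8% against 11.0% and 10.2% in the knockouts, and that of Loxl1 was 65.6% to 68.0% against 72.3% to 78.8%.

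Loxl2 and Loxl3 overlapped between the groups. Loxl2, whose enzyme is known to cross-link basement membrane collagen IV, had 19.4 and 55.8 CPM in the controls and 24.3 and 33.9 CPM in the knockouts. Its log2 fold change of -0.37 (SE 0.55; edgeR adjusted p = 0.798) changed sign to 0.55 without control 2. Loxl3, which is needed for palate and spine formation in mice, had 27.7 and 47.2 CPM in the controls and 48.7 and 41.5 CPM in the knockouts (0.27, SE 0.40; edgeR adjusted p = 0.802), and -0.04 without control 1. In the exons of Loxl3, 535 of 4603 bases overlap the opposite-strand gene Htra2, and in Plod3 529 of 4519 bases overlap Znhit1. Htra2 stood at 33.6 to 56.8 CPM and Znhit1 at 27.9 to 73.8 CPM. In Plod2, 346 of 5392 bases overlap the opposite-strand gene Gm38391 (2.57 and 3.31 CPM in the controls, 9.17 and 10.4 in the knockouts). In Loxl2, 301 of 5405 bases overlap Gm27177, which had 0 to 1 counts, and in Lox 30 of 4778 overlap AC161119.1, with 2 to 12 counts. Without strand in these libraries, reads of such stretches cannot be told apart, so the values of all these members carry that limit.

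**Figure D3:**
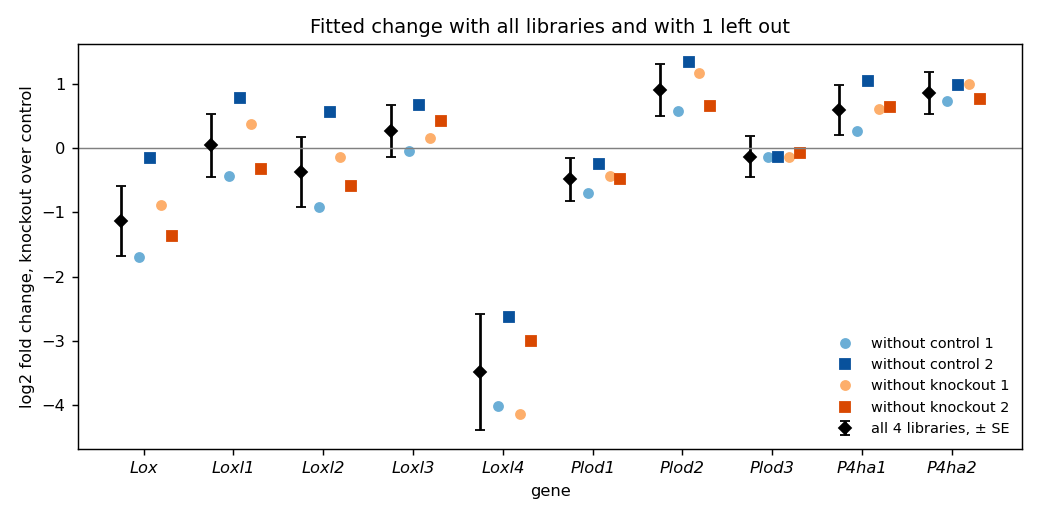
Fitted log2 fold change of each gene, knockout over control, from all 4 libraries (black, ± SE) and with 1 library left out (coloured points). Plod2, P4ha1 and P4ha2 stay above 0 and Loxl4 ranges from -4.13 to -2.63, whereas Loxl1, Loxl2 and Loxl3 change sign with 1 library.

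Control 2 was higher than control 1 for 10 of 10 members, as were 51.3% of all tested genes. Knockout 2 was higher than knockout 1 for 7 of 10 members, and for 44.9% of tested genes. Control 2 also had the highest summed level of 7 fibroblast and periodontal ligament markers (8255 CPM, against 3226 in control 1 and 5459.7 and 7508 in the knockouts). Its ameloblast and dental epithelium sum was the lowest (22362 CPM, against 62021 in control 1 and 34559 and 41534 in the knockouts). Their part in the level of the members was not tested.

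Promoter sequences were available for some of these genes. RefSeq's table for GRCm38.p6 held 5 of the 10 members, and the 250 bases before RefSeq's start site are shown for the prolyl 4-hydroxylase genes, higher in both knockouts, and for Loxl4, lower in both. Capitals mark matches to ACGTG, a form of the hypoxia response element core, and to GGGCGG, the GC box, each searched on both strands. The core can also read GCGTG, which was not searched or marked. The windows are chr10:59323046-59323295 (plus strand) for P4ha1, chr11:54100674-54100923 (plus strand) for P4ha2 and chr19:42612807-42613056 (minus strand) for Loxl4, written 5′ to 3′ along the gene. RefSeq's start of P4ha2 lies downstream of the first base of the GENCODE gene given above, so that window falls within the GENCODE gene.
P4ha1: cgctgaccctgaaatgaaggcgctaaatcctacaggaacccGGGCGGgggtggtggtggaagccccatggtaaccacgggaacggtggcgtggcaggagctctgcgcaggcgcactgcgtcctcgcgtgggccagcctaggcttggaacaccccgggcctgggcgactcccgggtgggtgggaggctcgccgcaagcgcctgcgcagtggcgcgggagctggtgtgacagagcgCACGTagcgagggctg
P4ha2: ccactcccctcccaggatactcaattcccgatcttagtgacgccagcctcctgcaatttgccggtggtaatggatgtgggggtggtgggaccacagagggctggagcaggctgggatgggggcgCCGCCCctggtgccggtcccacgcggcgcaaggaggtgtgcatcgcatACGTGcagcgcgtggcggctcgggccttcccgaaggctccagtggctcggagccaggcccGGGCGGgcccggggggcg
Loxl4: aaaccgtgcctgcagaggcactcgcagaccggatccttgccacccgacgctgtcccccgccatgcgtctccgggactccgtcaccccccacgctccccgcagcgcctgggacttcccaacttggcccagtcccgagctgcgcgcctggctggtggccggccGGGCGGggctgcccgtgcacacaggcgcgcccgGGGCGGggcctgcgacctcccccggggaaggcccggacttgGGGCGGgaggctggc

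ACGTG occurred once in the P4ha1 window, from 16 to 12 bases before the start and on the opposite strand, and once in the P4ha2 window, from 78 to 74 bases before it. It was also found in Plod3, 54 to 50 bases before the start, and not in Plod1 or Loxl4. Of 32851 RefSeq promoter windows of the same length, 16.6% held ACGTG. The GCGTG form was not counted. It can be read, on the gene strand or the opposite strand, in the windows of Plod1, Plod3, Loxl4, P4ha1 and P4ha2. GGGCGG was found 3 times in Loxl4, 2 times in P4ha2, 2 times in Plod1 and 1 time in P4ha1, and 32.7% of all windows held at least 1 match. CCAAT, held by 33.8% of windows, was found in Plod3 alone of these 5. A match is only a stretch of letters and not a measured binding site.

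Genes of the hypoxia-inducible factors (HIF), of their regulators and of their known targets did not lean one way as a list. P4ha1, P4ha2 and Plod2 are often counted among such targets. The list includes Vhl, Egln1 and Egln2, whose products lower HIF, so its counts are not a measure of HIF activity. Of 16 listed genes, all tested, 4 were higher and 4 lower in both knockouts (25.8% and 24.9% of all tested genes), 0 passed edgeR's adjusted threshold and the median log2 fold change was 0.01. Egln3, an oxygen-sensing prolyl hydroxylase that is induced by HIF, had 20.7 and 5.73 CPM in the controls and 3.28 and 1.57 CPM in the knockouts. Its log2 fold change was -2.44 (SE 0.81; edgeR adjusted p = 0.210), and -1.21 without control 1. It passed in DESeq2 (adjusted p = 0.0243). Bnip3, a mitophagy receptor, had 98.0 and 82.1 CPM against 134 and 170 CPM. Ndrg1, a stress-response gene, had 104 and 132 CPM against 38.8 and 82.7 CPM, with a log2 fold change of -0.96, or -0.50 when knockout 1 was left out.

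Among the partner proteins of collagen hydroxylation, more listed genes had higher than lower values, and none passed the test. Of 14 listed genes, all tested, 9 were higher and 1 was lower in both knockouts, beside 25.8% and 24.9% of all tested genes, and 0 passed edgeR's adjusted threshold, DESeq2's or limma-voom's. The median log2 fold change was 0.48, and between 0.24 (without knockout 2) and 0.60 (without knockout 1) with 1 library left out. Fkbp10, which encodes a prolyl isomerase that assists telopeptide lysine hydroxylation by the Plod2 enzyme, had 313 and 415 CPM in the controls and 657 and 844 CPM in the knockouts. Fkbp14, a related isomerase, had 92.8 and 115 CPM against 196 and 229.8 CPM. Crtap, a subunit of the prolyl 3-hydroxylase complex, had 116 and 143 CPM against 249.8 and 261 CPM. Each of these 3 had groups apart and a fold of 1.97 to 2.06, with edgeR adjusted p of 0.202 to 0.212. The means of P4ha2 and Plod2 were 1.81-fold and 1.88-fold higher. Of 7 dental mesenchyme markers, 5 were also higher in both knockouts (median log2 fold change 1.21, with the sums, mostly Msx1, given above). Their part in the values of these partners, of Plod2 and of the prolyl 4-hydroxylase genes was not tested.

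**Figure D4:**
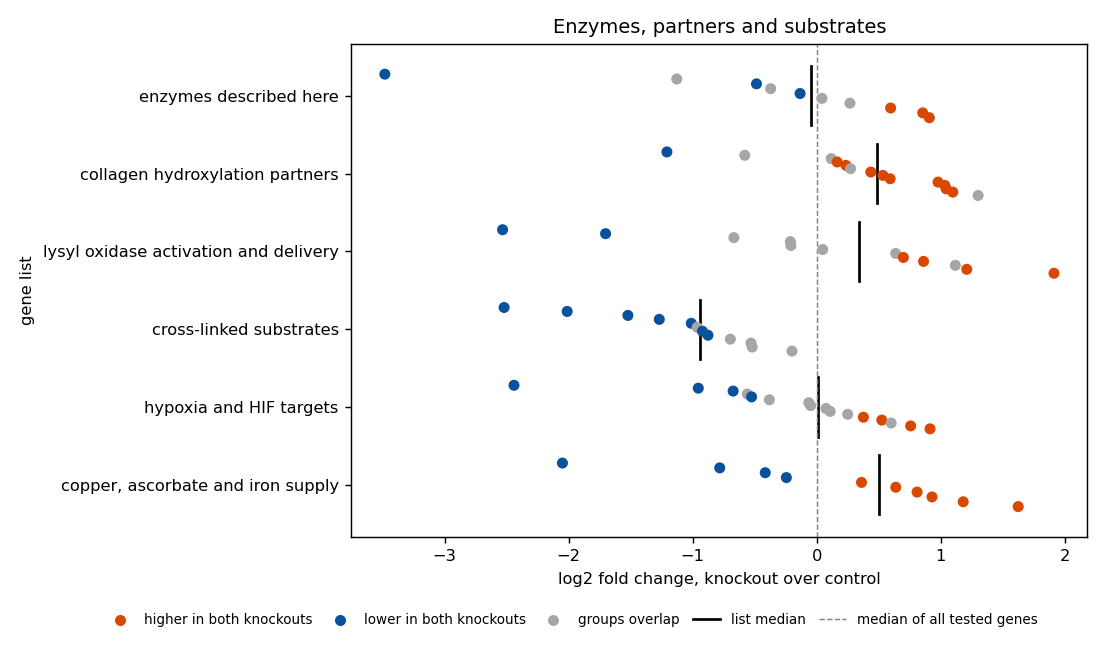
Log2 fold change, knockout over control, of the 10 enzyme genes and of 5 lists of related genes, with each point a gene coloured by whether the 2 groups overlap in CPM, and a black bar at each list's median. The median is 0.48 for the hydroxylation partners and -0.94 for the cross-linked substrates, beside 0.00 for all tested genes (dashed).

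Genes that activate lysyl oxidases or bring them to their substrate went both ways. Of 12 listed genes, all tested, 4 were higher and 2 lower in both knockouts (25.8% and 24.9% of all tested genes), with 0 past edgeR's adjusted threshold. The median of 0.34 was -0.16 without control 1 and 0.90 without control 2. Fmod, the gene of fibromodulin, a proteoglycan that binds collagen and lysyl oxidase, had 581 and 634 CPM in the controls and 2221 and 2352 CPM in the knockouts (log2 fold change 1.91, SE 0.33, edgeR adjusted p = 0.150; 1.88 to 1.96 with 1 library left out). It passed in DESeq2 (adjusted p = 0.000111), where 2.72% of genes were called higher. Efemp2, which encodes fibulin-4, a protein that brings Lox to elastic fibres, had 112 and 96.7 CPM against 255 and 227 CPM and passed in DESeq2 (adjusted p = 0.0443). Pcolce, an enhancer of procollagen C-proteinase, had 448 and 556 CPM against 841 and 981 CPM.

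Substrate genes had lower mean values in the knockouts, with none past the test. Of 12 collagen and elastin genes that lysyl oxidases act on, 7 were lower and 0 higher in both knockouts, beside 24.9% and 25.8% of all tested genes, and all 12 fold changes were negative, with 0 past edgeR's adjusted threshold. The median log2 fold change was -0.94, and -0.33 without control 2, beside 0.00 over all tested genes with all 4 libraries. Without control 2, Col1a1 (0.15), Col11a1 (0.45) and Col11a2 (0.56) had positive fold changes, and the other substrates stayed negative. Eln, the gene of elastin, had 122 and 337 CPM in the controls and 52.3 and 61.5 CPM in the knockouts (log2 fold change -2.01, SE 0.52, edgeR adjusted p = 0.169; DESeq2 adjusted p = 0.00301), and -1.14 without control 2. Col5a3 had 82.1 and 145 CPM against 26.3 and 13.2 CPM, and Col4a1, a basement membrane chain, 343 and 548 CPM against 205 and 106 CPM. Both passed in DESeq2 (adjusted p = 6.0e-05 and 0.0193). Most marker lists of other cell types had more genes below the controls than above them in both knockouts. Of 7 for fibroblasts and periodontal ligament, 4 lay below the controls in both knockouts and 1 above (median log2 fold change -1.01). Their summed level overlapped (3226 and 8255 against 5460 and 7508 CPM). For osteoblasts and odontoblasts 3 of 7 lay below and 2 above (median -0.18). For pericytes and smooth muscle 1 of 5 lay below and 0 above (median -0.01). For endothelium 3 of 6 lay below and 0 above, and for Schwann cells 3 of 5 below and 1 above. For ameloblasts and dental epithelium 4 of 7 lay below and 0 above (median -0.96). For leukocytes 7 of 10 and for erythroid cells 5 of 5 lay below, with 0 above. Dental mesenchyme went the other way, with 5 of 7 above and 0 below. The part of these cell types in the values of the substrates was not tested.

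Set against their main substrates, most enzymes were higher in the knockouts. Levels per kb were divided by the summed level per kb of Col1a1, Col1a2 and Col3a1, the fibrillar chains of highest level, which stood at 3825 and 8722 CPM per kb in the controls, against 2899 and 5095 in the knockouts. This ratio does not depend on library scaling. It was higher in both knockouts for 6 of 10 members and lower for 1, Loxl4. Over all tested genes these shares were 32.3% and 7.21%. Per 1000 of the collagen sum, Plod2 stood at 3.77 and 2.88 in the controls, against 10.4 and 8.65 in the knockouts, a log2 difference of 1.52 (1.33 to 1.72 with 1 library left out). P4ha2 stood at 5.34 and 2.87 against 12.9 and 8.82, and P4ha1 at 2.23 and 1.75 against 6.18 and 3.53. Loxl1, whose CPM overlapped between the groups, had ratios of 13.3 and 13.9 in the controls, against 22.9 and 21.8 in the knockouts. Loxl3 stood at 1.58 and 1.18 against 3.65 and 1.77. For Loxl2 the groups were only narrowly apart (0.938 and 1.18 against 1.55 and 1.23). The ratio of Lox overlapped (3.48 and 4.61 against 3.49 and 2.82), as did those of Plod1 and Plod3. Each of the 7 ratios whose groups lay apart had an exact permutation p of 0.333.

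**Figure D5:**
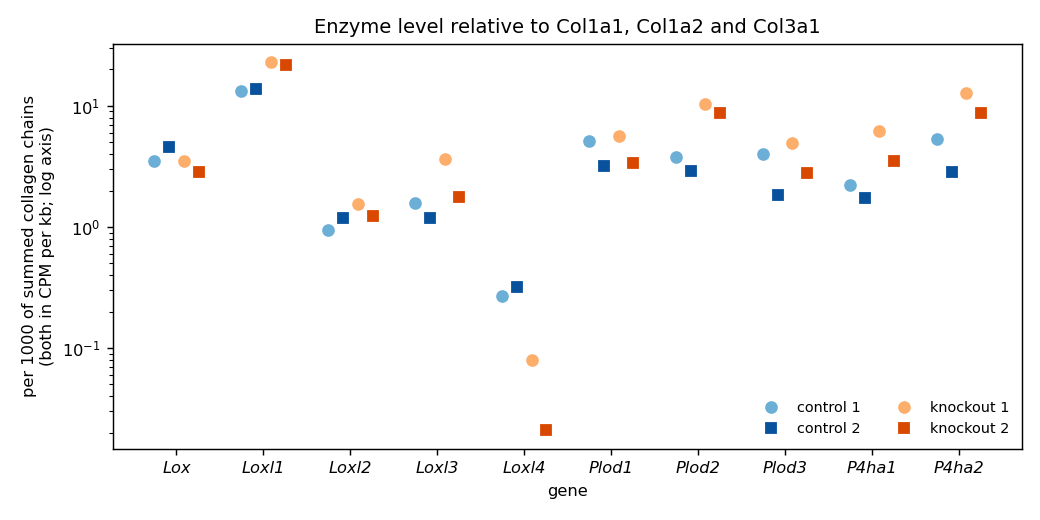
Level of each enzyme gene per 1000 of the summed level of Col1a1, Col1a2 and Col3a1, all in CPM per kb of exon, on a log axis, for the 4 libraries. Plod2 stands at 2.88 and 3.77 in the controls, against 8.65 and 10.4 in the knockouts, whereas the values of Lox overlap between the groups.

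Genes that supply copper to lysyl oxidases, or ascorbate and iron to the hydroxylases, were split, in part by what they supply. The copper genes Atp7a, Atox1, Slc31a1 and Slc31a2 were higher in both knockouts. The ascorbate transporter genes Slc23a1 and Slc23a2 were lower in both, Slc23a1 by little (2.57 and 2.99 against 2.56 and 2.13 CPM). Of the others, Slc39a13 and Slc39a14 were higher in both, and Tfrc and Slc11a2 were lower. Of 10 listed genes, all tested, 6 were higher and 4 lower in both knockouts (25.8% and 24.9% of all tested genes), with 0 past edgeR's adjusted threshold and a median log2 fold change of 0.50 (0.28 without control 1 and 0.75 without control 2). Slc39a14, a zinc and iron importer, had 14.1 and 13.6 CPM in the controls and 50.1 and 35.2 CPM in the knockouts. Atox1, the copper chaperone that feeds the secretory pathway, had 80.6 and 59.8 CPM against 182 and 136 CPM. Tfrc, the transferrin receptor for iron uptake, had 63.3 and 68.6 CPM against 20.6 and 11.2 CPM. Tfrc is also abundant in erythroid precursors, whose 5 markers were all lower in both knockouts, and the part of such cells was not tested. Slc39a14 and Tfrc passed in DESeq2 (adjusted p = 0.0172 and 0.000935), and Atox1 did not.

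For the member with the highest mean level per kb over all 4 libraries in each family, the genes of most similar pattern were sought among 10176 others with a mean of at least 10 CPM, by the root mean square difference of log2 CPM centred on each gene's mean, over the 4 libraries. For P4ha2 they were Btbd1 (0.004), Serinc1 (0.014) and Pcolce (0.018). For Plod2 they were St5 (0.043), Map4 (0.047) and Sdc2 (0.047), and for Loxl1 Usp9x (0.030), Glmn (0.032) and Tmem120b (0.045). With only 4 libraries, such closeness is a description of these samples.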

How the data were processed

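The deposited table gives raw counts, not normalised, for each Ensembl gene in 4 libraries. Per the labels' protocols, polyadenylated RNA was copied with oligo-dT primers and template switching, amplified in 14 PCR cycles, and 50 ng of cDNA were fragmented. PCR copies and strand cannot be told apart. The submitters' processing notes name GRCm38, featureCounts 2.0.1, Bowtie2 2.3.5.1 and Trim Galore 0.6.6. Annotation release, strand setting and handling of multiple matches were not given in the sources used here. Columns were matched to samples by name. GENCODE M21 (GRCm38) held 55227 of 55487 IDs and gave symbols, positions and exon lengths.

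Genes kept by filterByExpr (17128) were tested with edgeR 4.0.16 (R 4.3.3), TMM, genotype only, two-sided, with Benjamini-Hochberg adjustment over all genes; SE is the absolute log2 fold change over the square root of F. DESeq2 1.42.0 and limma-voom (limma 3.58.1), scalings, filters, a replicate block and left-out libraries were alternatives. The fits were tested on simulated data. Library pairs of a group differed beyond sampling noise (chi-square per gene 89.9 and 56.5). CPM per kb is TMM-scaled CPM over the merged length of all annotated exons of a gene. The members, the 5 related lists and the markers were chosen with earlier results of these data known. Named were all members, Paxip1, the 3 smallest edgeR p of each list and the 3 nearest patterns. Col1a1, Col1a2, Col3a1, the overlapping genes and the other list and marker genes named were added after their values were seen.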

Additional observations from a re-analysis of the deposited data

How the results depend on the processing

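With 2 libraries a group, a library left alone in its group takes its spread from the remaining pair. Over 12 alternatives, member fold changes kept their direction in 114 of 119 values; Loxl4 was not tested under the stricter filter. Loxl1 changed sign under the stricter filter (-0.027). With 1 library left out, log2 fold changes ranged from -0.43 to 0.77 for Loxl1, -0.92 to 0.55 for Loxl2 and -0.039 to 0.67 for Loxl3; the cause was not tested. Members past the threshold, 0 in each direction, were 0 higher and 1 lower (Loxl4) in DESeq2 and without the low-count filter (adjusted p = 0.00889, in a fit whose prior degrees of freedom were infinite, so that a gene's own spread did not count), and 0 to 1 lower with 1 library left out.

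Of 64 list genes, 3 higher and 5 lower passed in DESeq2, 2 and 7 without the filter, 0 and 1 under the stricter filter, and 0 to 1 higher and 0 to 6 lower with 1 library left out (6 without control 1, 3 without knockout 1). Over all genes, 472 higher and 989 lower passed in DESeq2, 449 and 1005 without the filter, 55 and 138 under the stricter filter, and 0 to 215 and 0 to 703 with 1 library left out, both highest without knockout 1. With replicate number as a block, 0 members, 1 list gene higher (Fmod) and 59 higher and 185 lower genes in all passed. The labels name no pairing, and deviations of same-numbered libraries from their group means correlated at 0.145 across genes, so the numbers were not taken to pair the libraries.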
